A study of Mus musculus with 6 samples.

Results

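Coenzyme Q, or ubiquinone, is made by a dedicated set of enzymes, and the 10 genes Pdss1, Pdss2, Coq2, Coq3, Coq4, Coq5, Coq6, Coq7, Coq8a and Coq9 were followed in mouse hearts under pressure overload with or without extra HINT2. The genes were chosen by symbol among the 54532 genes of the count table, and each symbol matched 1 row. RNA was sequenced from the left ventricle of 3 TG mice (genotype labelled HINT2CTG-Myh6Cre) and 3 NTG mice (labelled C57BL/6J), with 1 library per sample. TG mice carried a CAG-HINT2 transgene together with Myh6-Cre, which is driven in cardiomyocytes. They received tamoxifen at 5 mg/kg per day for 7 days to induce HINT2 overexpression. All mice were male, underwent aortic banding (AB, a ligature that narrows the aorta) at 8 to 10 weeks of age, and were sampled 4 weeks later. The methods do not say whether NTG mice received tamoxifen or carried Cre, so effects of either cannot be told apart from those of HINT2. No sham-operated libraries were analysed here, and both groups therefore share AB.

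Coenzyme Q is a lipid of the inner mitochondrial membrane that takes electrons from complex I, complex II and several other dehydrogenases and hands them to complex III. Its polyprenyl tail comes from the mevalonate pathway, which also feeds cholesterol synthesis, and its ring comes from 4-hydroxybenzoate. After tail and ring are joined, the ring is modified by enzymes that assemble on the matrix face of the inner membrane. The heart, with its many mitochondria, is among the tissues rich in this lipid.

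The libraries held 14863568 to 17581220 counts on genes in NTG and 14944465 to 17235802 in TG. Levels are given as CPM, counts in proportion to the size of the library, after TMM scaling, which corrects that size for differences in composition. The row of mouse Hint2 held 12, 545 and 559 counts in NTG 1, NTG 2 and NTG 3, and 793, 828 and 859 in TG 1, TG 2 and TG 3. TG lay above NTG in every library, but NTG 1 stood far below the other NTG libraries. How many of these reads came from the transgene was not tested. The fitted log2 fold change of Hint2 was 1.33 (SE 0.86, adjusted p = 0.434) and, without NTG 1, 0.77 (adjusted p = 0.0212). Because of this library, results are also given without NTG 1.

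All 10 genes were higher in TG than in NTG, by a fitted log2 fold change between 0.24 and 0.56, with a median of 0.33. Over the 14774 genes tested the median was -0.0081, and 48.7% of genes were higher in TG. Coq7, a hydroxylase of the ring, and Coq2, which joins ring and tail, had the largest differences, at 47.6% and 44.7% above NTG. None of the 10 passed edgeR's quasi-likelihood test at an adjusted p under 0.05 with a log2 fold change over 0.5, and the same holds for the whole table, where 0% of genes were called in either direction. At an unadjusted p under 0.05, 5 of the 10 were higher in TG, beside 8.83% of all genes tested. In 4 of the 10 every TG library lay above every NTG library, which 11.2% of all genes also showed. DESeq2 called Coq2 and Coq7 and 1.54% of all genes as higher in TG, while limma-voom called 0 of the 10 and 0% of all genes. With 1 library left out, DESeq2 called Coq2, Coq7, Coq8a and Coq9 without NTG 1 (5.92% of all genes), Coq2 and Coq7 without TG 2 (1.94%), and 0 of the 10 without NTG 2, NTG 3, TG 1 or TG 3 (0.193% to 0.679%). The 10 genes varied together from library to library, so their common direction is not that of 10 independent measurements.

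**Figure D1:**
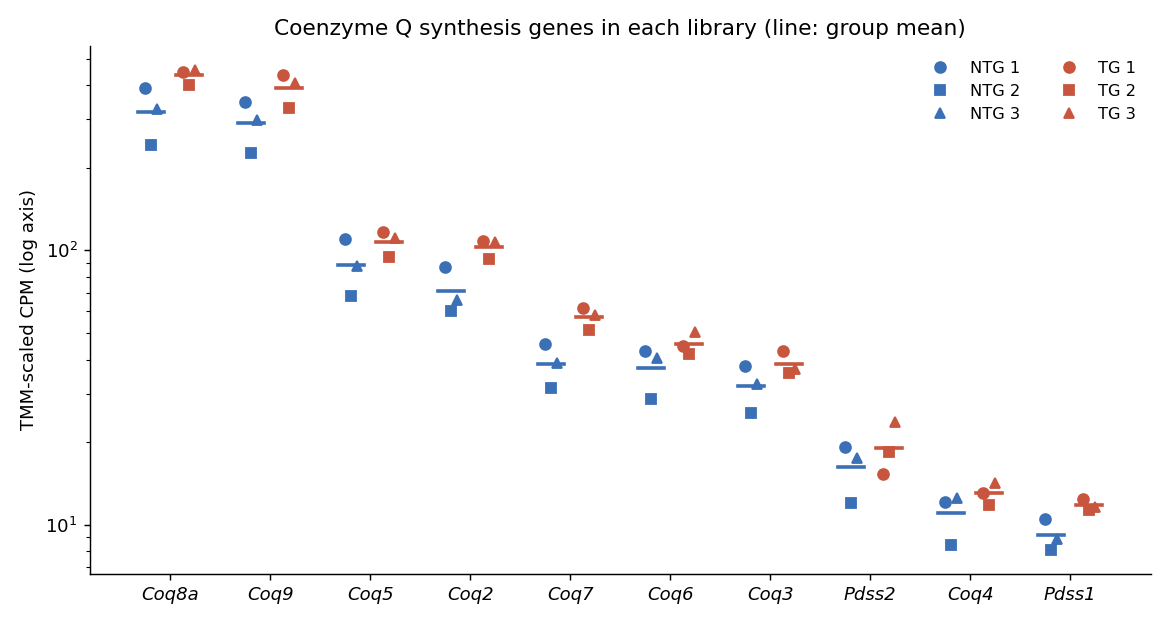
Level of each of the 10 coenzyme Q synthesis genes as TMM-scaled CPM on a log axis, with 1 point per library (blue NTG, red TG, shape for the replicate number) and a line at the group mean. In each of the 10 genes the NTG 2 square is the lowest blue point, and in Pdss1, Coq2, Coq7 and Coq8a the red points all lie above the blue ones. Heights of different genes are not comparable here, since CPM is not divided by gene length.

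NTG 2 was the lowest of the 6 libraries in all 10 genes, which was the case for 27.6% of all genes tested. Within NTG, NTG 1 was the highest library for every member but Coq4. Within TG, TG 2 was the lowest library for every member but Pdss2. The coefficient of variation between samples ran from 13.3% to 23.3% in NTG and from 5.13% to 22.1% in TG, against 1.28% to 7.67% for counting error alone, and in NTG it exceeded counting error in all 10 genes. In TG the 5.13% of Pdss1 lay below its counting error of 7.67%. The smallest count of any of the 10 genes in any library was 153, for Pdss1.

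The tail is built by a synthase with a Pdss1 and a Pdss2 subunit. Pdss1 (chr2:22895522-22940266, plus strand, GRCm38) was at 10.5, 8.11 and 8.90 CPM in NTG 1, 2 and 3 and at 12.5, 11.3 and 11.6 CPM in TG 1, 2 and 3. The groups did not overlap, and the fitted log2 fold change was 0.36 (SE 0.15, adjusted p = 0.245). Pdss2 (chr10:43221486-43464882, plus strand) was at 19.2, 12.0 and 17.5 CPM in NTG and at 15.3, 18.4 and 23.6 CPM in TG. Here TG 1 lay below 2 of the 3 NTG libraries. Its difference was the smallest of the 10, at a log2 fold change of 0.24 (SE 0.22, adjusted p = 0.569). Per kilobase of gene length, the ratio of Pdss2 to Pdss1 was 1.25 ± 0.180 in NTG and 1.16 ± 0.289 in TG (SD, n = 3), and the groups overlapped.

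Coq2 (chr5:100654723-100675140, minus strand) encodes the prenyltransferase that attaches the tail to 4-hydroxybenzoate. It was at 87.3, 60.2 and 65.8 CPM in NTG and at 108, 92.9 and 108 CPM in TG. The lowest TG library thus lay just above the highest NTG library, NTG 1. Group means were 71.1 ± 14.3 and 103 ± 8.66 CPM (SD, n = 3). The log2 fold change was 0.53 (SE 0.15) with an adjusted p of 0.196 in edgeR and 0.0497 in DESeq2. Without NTG 1 the log2 fold change became 0.71, with an adjusted p of 0.0218 in edgeR.

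The ring is then methylated and hydroxylated. Coq7 (chr7:118509659-118533356, minus strand), the hydroxylase of the penultimate step, was at 45.5, 31.6 and 38.9 CPM in NTG and at 61.7, 51.2 and 58.3 CPM in TG. Every TG library exceeded every NTG library, with means of 38.7 ± 7.0 in NTG and 57.0 ± 5.37 in TG (SD, n = 3). The log2 fold change of 0.56 (SE 0.14) was the largest of the 10, with an adjusted p of 0.196 in edgeR and 0.0379 in DESeq2. Without NTG 1 it was 0.69, with an adjusted p of 0.0311 in edgeR. Coq9 (chr8:94838321-94854895, plus strand) encodes the lipid-binding partner that presents the substrate to Coq7. It was at 348, 227 and 299 CPM in NTG and at 436, 331 and 406 CPM in TG. TG 2 lay below NTG 1, so the groups overlapped, and the log2 fold change was 0.43 (SE 0.18, adjusted p = 0.258). The ratio of Coq9 to Coq7 per kilobase was 16.1, 15.1 and 16.2 in NTG and 14.9, 13.6 and 14.7 in TG. By principal transcript lengths, which are shorter above all for Coq7, the ratio was 3.83 ± 0.143 in NTG and 3.49 ± 0.161 in TG (SD, n = 3). Coq9 stood lower relative to Coq7 in every TG library, with p = 0.1 in a two-sided exact permutation test, the smallest p that 3 against 3 allows, and p = 0.267 after adjustment over the 4 ratios compared.

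The 2 methyltransferases gave small differences. Coq3 (chr4:21879673-21912162, plus strand), which methylates oxygens of the ring, was at 38.0, 25.6 and 32.6 CPM in NTG and at 42.9, 35.8 and 37.1 CPM in TG. Coq5 (chr5:115279666-115296972, plus strand), which methylates a ring carbon, was at 110, 68.5 and 87.7 CPM in NTG and at 116, 94.2 and 111 CPM in TG. In both genes NTG 1 lay above TG 2, and the log2 fold changes were 0.27 (SE 0.15) and 0.28 (SE 0.17), with adjusted p of 0.368 and 0.410. Coq6 (chr12:84361657-84373796, plus strand), a ring hydroxylase that takes its electrons from ferredoxin, was at 42.8, 28.6 and 40.4 CPM in NTG and at 44.9, 42.1 and 50.2 CPM in TG. NTG 1 again lay above TG 2, and the log2 fold change was 0.30 (SE 0.16, adjusted p = 0.341). Coq4 (chr2:29787493-29797935, plus strand), which the ring-modifying complex requires, was at 12.1, 8.43 and 12.5 CPM in NTG and at 13.0, 11.8 and 14.2 CPM in TG. Its NTG 1 and NTG 3 libraries exceeded TG 2, and the log2 fold change was 0.25 (SE 0.18, adjusted p = 0.469).

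Coq8a (chr1:180165238-180199602, minus strand) encodes an atypical kinase-like ATPase that the pathway needs and that is the main form in muscle. It was at 389, 242 and 328 CPM in NTG and at 448, 399 and 455 CPM in TG. The groups did not overlap, although NTG 1 and TG 2 were close. The log2 fold change was 0.44 (SE 0.18), with an adjusted p of 0.241 in edgeR and 0.157 in DESeq2. Without NTG 1 it was 0.61, with an adjusted p of 0.0626 in edgeR, and without NTG 2 it was 0.27, with an adjusted p of 0.498.

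Without NTG 1, edgeR called Coq2 and Coq7 and 2.67% of all genes as higher in TG, and 8 of the 10 genes showed no overlap between the groups, beside 23% of all genes, as groups of 3 and 2 separate more readily. The median log2 fold change of the 10 was then 0.46, and without NTG 2, the lowest library, it was 0.20. Without TG 2 the groups were also apart in 8 of the 10, beside 20% of all genes, and edgeR called 0 of the 10 and 0.0199% of all genes. All 10 stayed higher in TG whichever library was left out, with the values closest to 0 for Pdss2, at 0.06 without NTG 2 and 0.06 without TG 3. Without NTG 2 the log2 fold changes of Coq3, Coq4, Coq5, Coq6 and Coq9 were 0.13, 0.08, 0.12, 0.13 and 0.27.

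**Figure D2:**
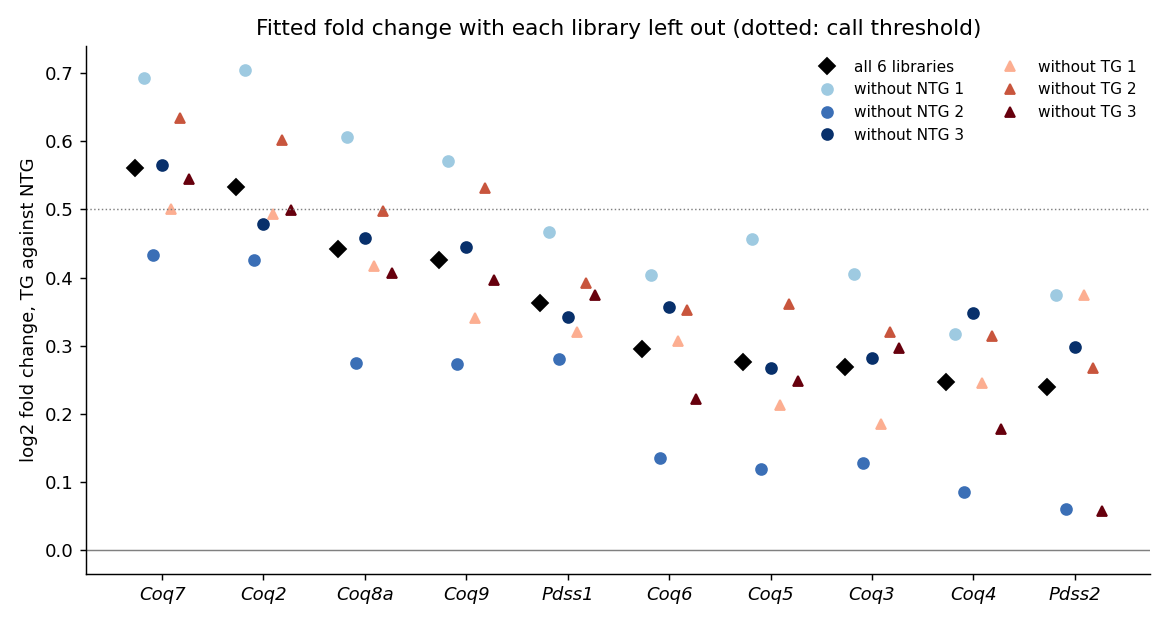
Fitted log2 fold change of TG against NTG for each of the 10 genes with all 6 libraries (black diamonds) and with each library left out in turn (blue circles for NTG, red triangles for TG). The dotted line is the size threshold of 0.5, and every point lies above 0. Leaving out NTG 1 gives the highest value in all genes but Coq4, and leaving out NTG 2 the lowest in all but Pdss2, where it nearly ties with leaving out TG 3.

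Sequence before the RefSeq start of the genes with the largest differences, Coq2 and Coq7, and of Coq8a, the member whose pattern was closest to the mean of the others, is shown for reference. RefSeq promoters (GRCm38.p6) matched 9 of the 10 genes, the exception being Coq5. In each, the 220 bases from 250 to 31 bases before the start were searched on both strands for 7 short motifs, namely NRF1 (TGCGCA), ETS (CCGGAAG), the CCAAT box (CCAAT), the GC box (GGGCGG), YY1 (AAGATGG), ERR (AAGGTCA) and the E-box (CACGTG). In the lines that follow, each read 5′ to 3′ on the strand of its gene, capitals mark matches on either strand. The windows are chr5:100674287-100674506, chr7:118533387-118533606 and chr1:180196051-180196270, all on the minus strand. Those of Coq2 and Coq8a lie within the gene spans given above, which reach further upstream than the RefSeq starts, and of the 2 starts listed for Coq8a the one further upstream was used.
Coq2: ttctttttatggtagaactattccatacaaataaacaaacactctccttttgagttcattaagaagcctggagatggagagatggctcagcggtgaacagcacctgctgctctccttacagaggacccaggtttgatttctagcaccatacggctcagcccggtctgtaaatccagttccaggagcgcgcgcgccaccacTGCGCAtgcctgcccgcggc
Coq7: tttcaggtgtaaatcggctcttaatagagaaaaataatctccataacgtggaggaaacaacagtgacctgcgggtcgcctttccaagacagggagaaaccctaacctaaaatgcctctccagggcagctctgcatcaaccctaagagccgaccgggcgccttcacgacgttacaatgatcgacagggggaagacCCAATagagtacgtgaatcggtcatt
Coq8a: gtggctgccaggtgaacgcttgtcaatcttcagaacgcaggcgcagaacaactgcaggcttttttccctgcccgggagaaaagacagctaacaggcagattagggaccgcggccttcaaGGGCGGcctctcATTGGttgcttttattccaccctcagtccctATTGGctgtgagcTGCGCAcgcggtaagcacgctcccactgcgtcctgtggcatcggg
NRF1 is a factor known for genes of the respiratory chain, and its core letters were in 2 of the 9 windows, those of Coq2 and Coq8a, against 5.27% of the 32817 promoters of the table. The first base of the match was 50 bases before the start in Coq2 and 75 in Coq8a. A CCAAT box was in Coq6, Coq7 and Coq8a (31.0% of all promoters), 56 bases before the start in Coq7. A GC box was in Pdss2, Coq6 and Coq8a (28.5%), and in Coq6 it overlapped a CCAAT box. ETS letters were in Pdss2 (4.99%), ERR letters in Pdss1 (3.68%) and an E-box in Coq4 (5.01%), while YY1 letters were in none of the 9 (4.03%). No one motif was thus common to the members, and the windows had a median GC content of 51.8%, the same as over all promoters. A match describes letters only.

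Per kilobase of the gene length listed in the table, levels of the 10 genes spanned a wide range. Coq9 was the highest, at 95.3 ± 19.9 CPM per kilobase in NTG and 128 ± 17.6 in TG (SD, n = 3), followed by Coq8a at 60.4 ± 14.0 and 82.0 ± 5.70. Coq5 at 29.2 ± 6.82 and 35.4 ± 3.81 and Coq2 at 27.1 ± 5.45 and 39.2 ± 3.30 came next, and their order switched between NTG and TG. Coq6 at 11.9 ± 2.42 and 14.6 ± 1.32 and Coq3 at 10.7 ± 2.08 and 12.9 ± 1.27 were followed by Coq7 at 6.01 ± 1.09 and 8.87 ± 0.834. The lowest 3 were Coq4 at 3.23 ± 0.655 and 3.83 ± 0.358, Pdss2 at 2.72 ± 0.630 and 3.20 ± 0.707, and Pdss1 at 2.16 ± 0.286 and 2.77 ± 0.142. By this length the genes of the tail synthase lay at the bottom, and Coq9 stood 44.2 times above Pdss1 in NTG and 46.2 times in TG. Of neighbours in this order, Coq8a and Coq5, Coq2 and Coq6, and Coq7 and Coq4 had no overlap over the 6 libraries, and the other neighbours overlapped. Coq9 was nonetheless above Coq8a within each of the 6 libraries.

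The order depends on the length used, most of all for Coq7. The table lists 6434 bases, the union of all annotated exons, whereas its principal transcript in GENCODE M21 has 914, a ratio of 7.04, against 1.13 to 2.80 in the other members. With principal transcript lengths, chosen after seeing the data, Coq7 reached 42.3 ± 7.65 CPM per kilobase in NTG and 62.4 ± 5.87 in TG (SD, n = 3) and moved from 7th to the 4th place in NTG and the 3rd in TG. Which transcripts these hearts used is not measured by gene counts, so the place of Coq7 is uncertain. With these lengths Coq4 was the lowest gene in both groups, just below Pdss1, and Coq9 stood 29.2 times above Pdss1 in NTG and 30.5 times in TG. Differences between TG and NTG within a gene are not affected by the choice of length.

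**Figure D3:**
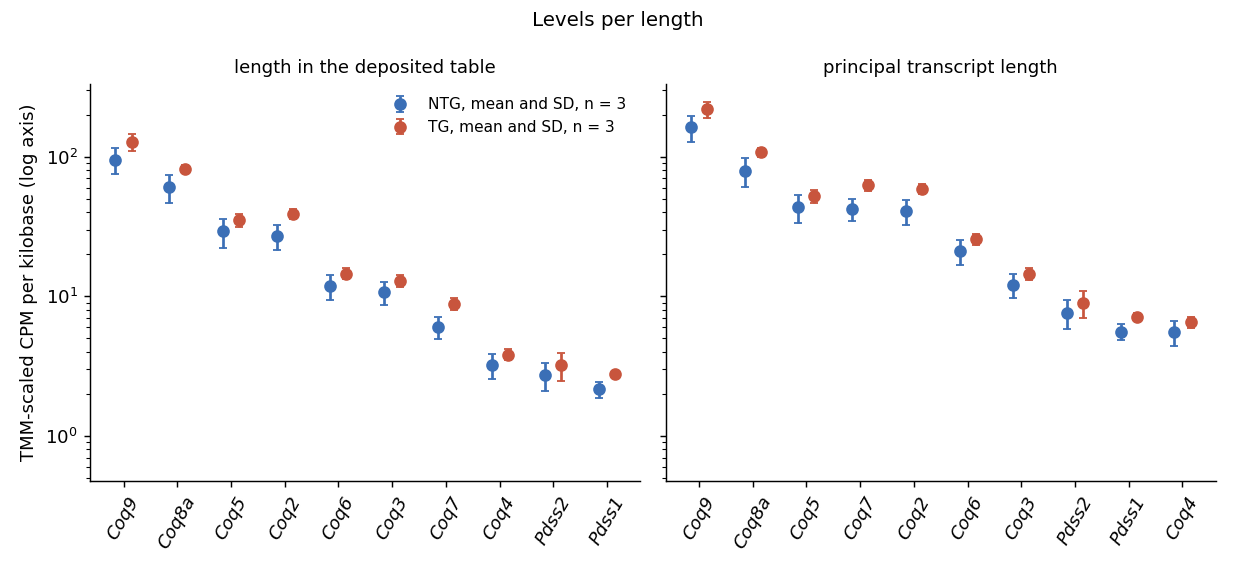
Level of each gene as TMM-scaled CPM per kilobase on a log axis, mean and SD of 3 libraries in NTG (blue) and TG (red), by the gene length of the deposited table (left) and by the principal transcript length (right), each ordered by the NTG mean. Coq9 and Coq8a lead in both panels, and Coq7 moves from 6.01 to 42.3 in NTG.

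Some counts may hold reads of neighbouring genes, since the strand setting of the counting was not given in the sources used here. The gene span of Coq4 shares 1010 bases with Trub2 (342 to 454 counts), that of Coq8a 366 with Cdc42bpa (1116 to 1787), that of Pdss1 194 with Abi1 (686 to 1264), that of Coq6 177 with Fam161b (85 to 124) and that of Coq9 38 with Ciapin1 (703 to 1020), each on the opposite strand. Coq2 shares 4282 bases with the antisense gene Gm15777, which had 11 to 26 counts. The spans of Coq3 and Coq7 overlap no other annotated gene.

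Around the core enzymes are genes that assist, store or use coenzyme Q, of which 12 were in the table and 11 were tested. Of these, 8 were higher and 3 lower in TG, with a median log2 fold change of 0.29 (0.088 without NTG 2). Of the 11, edgeR, DESeq2 and voom called 0, beside 0%, 1.54% and 0% of all genes called higher. At an unadjusted p under 0.05, 4 were higher, namely Fdx1, Pptc7, Coq10a and Aifm2 (8.83% of all genes tested), and 0 lower (9.76%). Pptc7, a mitochondrial phosphatase linked to coenzyme Q synthesis, was at 133, 82.4 and 104 CPM in NTG and at 177, 131 and 146 CPM in TG. NTG 1 narrowly exceeded TG 2, the log2 fold change was 0.51 (SE 0.19, adjusted p = 0.227), and without NTG 1 it was 0.70 (adjusted p = 0.0484). Fdx1, a ferredoxin that carries electrons for mitochondrial hydroxylases, had a log2 fold change of 0.55 (SE 0.20, adjusted p = 0.227). Aifm2, which reduces coenzyme Q outside mitochondria, was the 1 gene of the 11 with no overlap between groups (11.2% of all genes), at 0.30 (SE 0.13, adjusted p = 0.266). Adck1 (0.29), Hpdl (0.32), Adck2 (0.10), Adck5 (-0.15) and Fdxr (-0.08), the reductase that feeds ferredoxin, had an unadjusted p above 0.05. Without NTG 1, Hpdl was at 0.70, Adck5 at -0.23 and Fdxr at -0.15. Fdx1l had 0 to 2 counts and was not tested. Its span overlaps those of Gm49373 and Gm38431 on the same strand, where featureCounts may leave reads unassigned.

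The paralogs of Coq8a and Coq10a had smaller fitted differences. Coq8b, the paralog of Coq8a, was at 8.32, 11.9 and 10.7 CPM in NTG and at 8.43, 9.54 and 9.37 CPM in TG, with a log2 fold change of -0.18 (SE 0.17, adjusted p = 0.575) that was -0.32 without NTG 1. Unlike in Coq8a, NTG 2 was here the highest library. The ratio of Coq8a to Coq8b per kilobase was 49.4, 21.4 and 32.2 in NTG and 56.1, 44.2 and 51.2 in TG. The groups overlapped, with p = 0.2 in the exact permutation test and 0.267 after adjustment. Coq10a, which binds coenzyme Q, was at 201, 120.5 and 166 CPM in NTG and at 248, 199 and 225 CPM in TG, with a log2 fold change of 0.46 (SE 0.19, adjusted p = 0.245). Its paralog Coq10b was at 35.3, 36.2 and 35.0 CPM in NTG and at 41.9, 36.4 and 33.8 CPM in TG, with a log2 fold change of 0.07 (SE 0.10, adjusted p = 0.720). The ratio of Coq10a to Coq10b per kilobase was 8.57 ± 2.22 in NTG and 11.2 ± 1.15 in TG (SD, n = 3), again with overlap and p = 0.2 in the exact permutation test.

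The mevalonate pathway, which supplies the tail, had fitted differences closer to 0. Of its 9 genes 8 were tested, of which 5 were higher and 3 lower in TG, with a median log2 fold change of 0.04. In edgeR, 0 of the 8 had an unadjusted p under 0.05, beside 8.83% of all genes higher in TG and 9.76% lower. Each tool called 0, where edgeR and voom called 0% of all genes as higher and DESeq2 1.54%. The median was below 0 without TG 2 (-0.080), NTG 3 (-0.052) or TG 1 (-0.0087) and with scaling by library size alone (-0.043). The smallest p belonged to Mvk, the mevalonate kinase (0.20, SE 0.21, adjusted p = 0.609), Hmgcs1, which makes HMG-CoA (0.15, SE 0.15, adjusted p = 0.614), and Ggps1, the geranylgeranyl diphosphate synthase (-0.07, SE 0.11, adjusted p = 0.730). Fdps, the farnesyl diphosphate synthase, had 0 to 10 counts and was not tested. Its span overlaps Gm43738 on the same strand by 7512 bases, where reads may likewise be left unassigned, so its count is a poor measure of its level. In the branch to cholesterol, 13 of 13 genes were tested, 4 were higher and 9 lower, with a median of -0.10. Again 0 had an unadjusted p under 0.05 or were called, beside the same shares of all genes. Nsdhl, a sterol dehydrogenase, was the 1 gene of the 13 that was lower in every TG library than in any NTG library, beside 12.3% of all genes (-0.37, SE 0.17, adjusted p = 0.282). Fdft1, the squalene synthase at the branch point (0.37, SE 0.19, adjusted p = 0.334), and Ebp, a sterol isomerase (-0.21, SE 0.14, adjusted p = 0.422), followed.

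**Figure D4:**
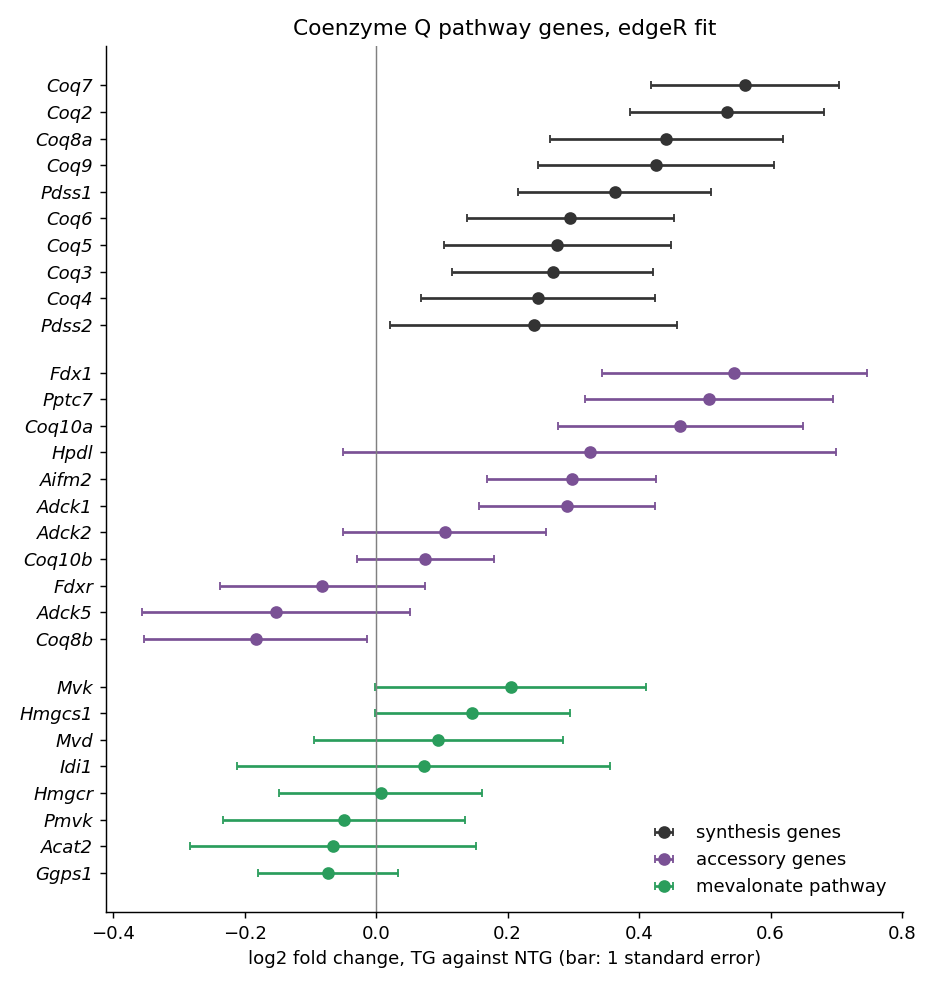
Fitted log2 fold change of TG against NTG, with a bar of 1 standard error, for the 10 synthesis genes (black), the 11 tested accessory genes (purple) and the 8 tested genes of the mevalonate pathway (green). The 10 synthesis genes lie between 0.24 and 0.56, whereas the mevalonate genes lie between -0.07 and 0.20.

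Genes that reduce or oxidize coenzyme Q, or feed electrons to its reduction, went the same way as the synthesis genes. Of 12 genes for complex II, other dehydrogenases that pass electrons to coenzyme Q and the flavoprotein of Etfa and Etfb, 11 were tested. All 11 were higher in TG, by a log2 fold change of 0.05 (Gpd2) to 0.75, with a median of 0.41. An unadjusted p under 0.05 was found for 5 of them (8.83% of all genes). Etfb (0.75, SE 0.23, adjusted p = 0.203) and Etfa (0.58, SE 0.20, adjusted p = 0.213) encode the flavoprotein that carries electrons from fatty acid oxidation, and Sdhb (0.57, SE 0.18, adjusted p = 0.204) is a subunit of complex II. DESeq2 called Etfb and Sdhb. Chdh, at 2 to 11 counts, was not tested. Of the 9 nuclear genes of complex III, which oxidizes reduced coenzyme Q, 9 were higher, with a median of 0.43 (0.27 without NTG 2), and 4 showed no overlap between groups (11.2% of all genes). Uqcr11 had the largest difference (0.89, SE 0.19, adjusted p = 0.196), from 190 ± 45.5 CPM in NTG to 351 ± 46.9 in TG (SD, n = 3). Uqcrq (0.72, SE 0.17, adjusted p = 0.196) and Uqcrc1 (0.56, SE 0.20, adjusted p = 0.217) followed. DESeq2 called Uqcr11 and Uqcrq, while edgeR called 0 in both lists. Over all genes DESeq2 called 1.54% as higher and edgeR 0%. Without NTG 1, edgeR called 3 genes of the first list (Etfa, Etfb and Sdhb) and 2 of complex III (Uqcr11 and Uqcrq), beside 2.67% of all genes.

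General mitochondrial genes and cell type markers also differed between the libraries. Of 9 genes of mitochondrial content, 9 were higher in TG, by a log2 fold change of 0.03 to 0.58, with a median of 0.28 (0.15 without NTG 2). An unadjusted p under 0.05 was found for 2 of them (8.83% of all genes). These were Tomm20, an import receptor of the outer membrane (0.33, SE 0.11, adjusted p = 0.207), and Slc25a4, the heart's main ADP/ATP carrier (0.58, SE 0.20, adjusted p = 0.213), which DESeq2 called. Tomm22, another import receptor, had 0.19 (SE 0.09, adjusted p = 0.305). Genes of the mitochondrial genome took 13.4% to 19.2% of counts in NTG and 16.0% to 21.5% in TG. Of 10 cardiomyocyte markers, 10 were higher in TG, 2 of them without overlap (11.2% of all genes), and their summed level was 26966 to 43872 CPM in NTG and 41677 to 50975 CPM in TG. All 8 fibroblast markers were lower in TG, 5 of them without overlap (12.3% of all genes), with sums of 4868 to 11025 CPM in NTG and 2474 to 4144 CPM in TG. In bulk tissue a change in the share of cardiomyocytes and a change in RNA per cardiomyocyte cannot be told apart.

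Library by library, the synthesis genes followed the cardiomyocyte markers closely. As the mean of log2 CPM around each gene's own mean, the 10 genes stood at 0.07, -0.50 and -0.13 in NTG 1, 2 and 3 and at 0.23, 0.06 and 0.27 in TG 1, 2 and 3. The cardiomyocyte markers stood at 0.10, -0.55 and -0.16 in NTG and at 0.31, 0.02 and 0.28 in TG. Both were lowest in NTG 2 and, within TG, in TG 2. The mean difference between TG and NTG was 0.38 for the synthesis genes and 0.41 for the cardiomyocyte markers. Relative to the cardiomyocyte markers, the synthesis genes differed by -0.03 between the groups, with an SD of 0.04 in NTG and 0.06 in TG. Relative to the genes of mitochondrial content, they differed by 0.09, with an SD of 0.11 in NTG and 0.05 in TG, and relative to the mevalonate pathway by 0.34, with an SD of 0.25 and 0.24. Relative to the list of dehydrogenases and the flavoprotein they differed by -0.01, with an SD of 0.06 and 0.07. Relative to complex III the difference was -0.10 (SD 0.05 and 0.10), and relative to the accessory genes 0.17 (SD 0.16 and 0.08). Set against the cardiomyocyte markers or the dehydrogenases, the difference between the groups was smaller than the SD within either group.

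**Figure D5:**
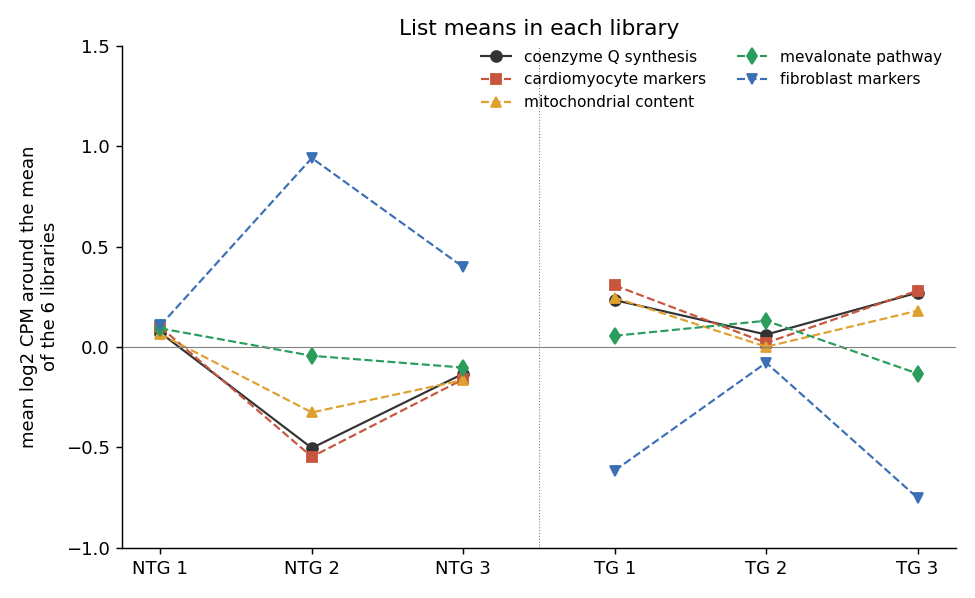
Mean log2 CPM of 5 gene lists in each library, each gene taken around its own mean over the 6 libraries, with NTG left and TG right of the dotted line and lines only to guide the eye. The synthesis genes (black) and the cardiomyocyte markers (red) run together, both lowest in NTG 2 at -0.50 and -0.55, while the fibroblast markers (blue) mirror them and the mevalonate pathway (green) stays between -0.13 and 0.13.

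Markers of other cell types varied as well. NTG 2 had 207 CPM of neutrophil markers, against 3.69 to 26.2 CPM in the other libraries, and the highest sums of macrophage and red blood cell markers. All 8 macrophage markers were lower in TG, at sums of 677 to 986 CPM against 911 to 1681 CPM in NTG, and all 5 red blood cell markers at 761 to 906 against 1308 to 2242 CPM. Smooth muscle markers summed to 202 to 225 CPM in TG and 130 to 155 CPM in NTG, and 3 of 4 were higher in TG without overlap (11.2% of all genes), while Tagln had a log2 fold change of -0.61 (SE 0.55) with overlap. Endothelial markers summed to 1685 to 1853 CPM in TG and 1648 to 1925 CPM in NTG. Fat markers reached at most 2.53 CPM, with Lep at 0 throughout. Atrial markers, which a left ventricular sample should hold little of, reached 67.4 CPM in NTG 1, 29.1 in TG 2 and 167 in TG 3, against 2.20 to 4.75 CPM in the other libraries. The part of these cell types in the values of the synthesis genes was not tested.

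Among the 10 genes, Coq8a was closest to the mean of the others over the 6 libraries and Pdss2 the least close, as TG 1 was the lowest TG library for Pdss2 alone. Outside the 10, the genes whose log2 CPM followed their mean most closely over the 6 libraries were Ift81, Sbk1, Dcaf11, Cars2 and Tmem143. Their log2 fold changes were 0.57, 0.63, 0.29, 0.35 and 0.50, with edgeR adjusted p between 0.228 and 0.277. Such likeness was common in these data, since 9.59% of all genes tested followed the mean of the synthesis genes at a Pearson correlation above 0.9 over the same 6 libraries.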

How the data were processed

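Left ventricular poly-A RNA of 3 TG and 3 NTG mice was sequenced on a NovaSeq instrument. Per the methods, the authors cleaned the reads with in-house scripts, used StringTie for further transcripts and counted reads per gene with featureCounts, and the deposited values are raw counts, neither normalized nor pooled. The submitters' processing notes name HISAT2, DESeq2 and GRCh38, a human build, while 98.3% of the table's genes found in GENCODE M21 have identical mouse GRCm38 positions, the build used here. How multi-mapping reads were treated is not given in the sources used here, and copies of a gene may share reads. In the table, 27 gene names had been stored as dates, and 0 sample columns were left unmatched.

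Counts were fitted in R 4.3.3 with edgeR 4.0.16 (TMM, filterByExpr by group, robust quasi-likelihood test, no covariate), with Benjamini-Hochberg adjustment over 14774 genes. Genes were called by the study's thresholds, 0.05 for the adjusted p and 0.5 for the absolute log2 fold change. DESeq2 1.42.0 and limma 3.58.1 (voom) were alternatives, besides other scalings and filters, robust = FALSE, an offset for gene length, a replicate block and each library left out. DESeq2 without each library and the principal transcript lengths were added after seeing the data. Log2 CPM has a prior count of 2. Each fit was first tested on simulated data. The labels number the samples of a group without naming animals, so p-values measure the spread between these samples, which may be technical in part. No 2 libraries agreed within sampling noise. By chi-square per gene between 2 libraries, larger where counts differ more, NTG 1 stood 22.1, 18.1 and 28.6 from TG 1, TG 2 and TG 3. From NTG 2 and NTG 3 it stood 72.5 and 33.9, so over all genes it was nearer to each TG library than to either other NTG library.

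The 10 genes and all lists were chosen with earlier results of these data known. Named are the 10 genes, all accessory genes, the 3 genes of smallest p in each other pathway list, Hint2 and the 5 genes most like the members' mean. Some others were named after their values were seen, where a count or overlap turned on them.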

Additional observations from a re-analysis of the deposited data

How the results depend on the processing

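All 10 genes stayed higher in TG under each of the alternatives run. Of the 10, edgeR called 0 with all libraries, 2 with no low-count filter (Coq2 and Coq7, among 116 genes called higher, or 0.432%, and 116 lower), and 0 to 2 with 1 library left out, the 2 without NTG 1. DESeq2 called 2 with all libraries (1.54% of all genes) and, in fits added after seeing the data, 4 without NTG 1 (Coq2, Coq7, Coq8a and Coq9, with 5.92% of all genes), 2 without TG 2 (1.94%) and 0 without any other library. With a replicate block edgeR called 1, Coq7 (adjusted p = 0.0477), among 84 genes higher (0.569%) and 147 lower in the whole table. The deviations of same-numbered libraries correlated at 0.08, 0.17 and -0.25. With 3 libraries per group these values cannot settle whether the numbers pair the samples. Genes without overlap between groups numbered 4 to 8 with 1 library left out (8 without NTG 1 or TG 2, beside 23% and 20% of all genes, and 4 otherwise, beside 13.7% to 15.1%), and the median log2 fold change of the 10 was 0.20 to 0.46. It was 0.25 with scaling by library size alone, where the median of all genes was -0.09. With 1 library left out, medians were 0.088 to 0.38 for the accessory genes, the low value without NTG 2, -0.080 to 0.091 for the mevalonate pathway, below 0 without TG 2, NTG 3 or TG 1 and also with library size alone (-0.043), and -0.17 to 0.02 for the cholesterol branch. They were 0.27 to 0.61 for complex III, 0.30 to 0.57 for the dehydrogenases and 0.15 to 0.37 for mitochondrial content, each lowest without NTG 2, and Hint2 ranged from 0.77 to 1.79. A fit without 1 library leaves 2 samples in a group. The common biological coefficient of variation was 18.7%, against counting errors of 1.28% to 7.67% for the 10 genes.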
